A study of Mus musculus with 6 samples.

Results

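The actin cytoskeleton genes described here are 10 of the 21841 genes in the count table of sorted tumor macrophages, chosen by name: the actins *Actb* and *Actg1*, the thymosins *Tmsb4x* and *Tmsb10*, profilin *Pfn1*, cofilin *Cfl1*, coronin *Coro1a* and the Arp2/3 complex subunits *Arpc1b*, *Arpc2* and *Arpc3*. Bulk RNAseq was performed on live CD45+F4/80+CD206+LYVE-1+ tumor-associated macrophages (TAMs) sorted from the mammary tumors of 6 mice, of which 3 received KCL-HO-1i, an inhibitor of the heme-degrading enzyme heme oxygenase-1, over 36 h, and 3 received its vehicle. The question was how the transcriptome of this perivascular TAM subset differs between treated and untreated tumors. Both groups carried the same transgene, FVB/N-Tg(MMTV-PyVT)634Mul/J, which drives polyoma middle T antigen from a mammary tumor virus promoter, and the genotype field of all 6 reads WT. KCL-HO-1i was injected intraperitoneally at 25 µmol/kg daily, and the sort target was 5000 cells, stated for each condition. The age of the mice is not given in the labels. All vehicle mice have codes that begin alike and differently from those of the KCL-HO-1i mice, so treatment and any batch tied to the codes cannot be told apart.

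Actin exists as soluble monomers and as filaments that push the cell membrane forward when macrophages crawl and engulf particles. Thymosins hold monomers in reserve, profilin feeds them to growing filament ends, and the Arp2/3 complex starts new filaments as branches on old ones. Cofilin severs old filaments, and coronin 1A, found mainly in blood-derived cells, binds filaments and Arp2/3. The actins and thymosin beta-4 are among the most abundant messages of macrophages.

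The closeness of the family members matters for how reads were counted, so the sequences that separate them are shown first. The first 60 coding bases of both actins are given from GENCODE M21 transcripts, with the bases that differ in capitals.
Actb: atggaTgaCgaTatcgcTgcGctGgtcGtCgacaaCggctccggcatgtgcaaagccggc
Actg1: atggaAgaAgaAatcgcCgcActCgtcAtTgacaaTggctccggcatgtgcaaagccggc
Over the whole coding sequence, 1000 of 1128 bases were identical (88.7%). The complete coding sequences of the thymosins, marked in the same way, were less alike, with 95 of 135 bases identical (70.4%).
Tmsb4x: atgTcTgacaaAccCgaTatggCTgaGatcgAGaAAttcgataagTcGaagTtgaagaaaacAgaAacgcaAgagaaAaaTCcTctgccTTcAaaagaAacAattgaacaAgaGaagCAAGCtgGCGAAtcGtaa
Tmsb10: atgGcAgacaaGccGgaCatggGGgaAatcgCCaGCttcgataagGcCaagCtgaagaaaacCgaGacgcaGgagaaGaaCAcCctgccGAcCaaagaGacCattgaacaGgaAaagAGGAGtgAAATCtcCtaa

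A count is less certain where a transcript shares sequence with other genes, and this was measured as the percent of a member's 31-base words that occur in the transcripts of another gene in GENCODE M21. None of the words of *Tmsb4x*, *Coro1a* or *Arpc3* did (0%), and *Pfn1* shared 0.963%. *Actg1* shared 57.1%, largely with processed pseudogenes, and *Tmsb10* shared 52.4%. *Actb* shared 35.1%. Of all its words, 22.7% occurred in *Lrrc58* and 5.61% in *Actg1*. In vehicle, *Lrrc58* had 30, 14 and 80 counts, more than the 3 and 41 of *Actb* in replicates 2 and 3. With KCL-HO-1i it had 0, 32 and 90, where *Actb* had 783, 1374 and 1592. *Gm9844* is the copy closest to *Tmsb10* that is in the table. It had 0, 3 and 2 counts in vehicle, where *Tmsb10* had 3, 5 and 2. With KCL-HO-1i it had 1, 0 and 0, where *Tmsb10* had 14, 33 and 15. *Arpc1b* shared 22.5%, with 693 other genes, *Cfl1* 16.4%, with 383, and *Arpc2* 7.45%. The counts of *Actb*, *Actg1*, *Tmsb10*, *Arpc1b*, *Cfl1* and *Arpc2* are therefore less certain in this respect than those of *Tmsb4x*.

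The promoters were compared for the CArG box, the 10-base motif bound by serum response factor, which is well known at actin genes. RefSeq windows from 250 bases before to 50 after a start site (GRCm38.p6) were found for 9 of the 10 genes, in 12 windows, and both strands were searched. One of these 12 windows held a box, against 535 of 32851 windows over all genes (1.63%). The box lay 90 bases before the start of *Actg1*. Its window, chr11:120348446-120348745 on the minus strand, is printed 5′ to 3′ with the box in capitals because it held the only match.
Actg1 promoter: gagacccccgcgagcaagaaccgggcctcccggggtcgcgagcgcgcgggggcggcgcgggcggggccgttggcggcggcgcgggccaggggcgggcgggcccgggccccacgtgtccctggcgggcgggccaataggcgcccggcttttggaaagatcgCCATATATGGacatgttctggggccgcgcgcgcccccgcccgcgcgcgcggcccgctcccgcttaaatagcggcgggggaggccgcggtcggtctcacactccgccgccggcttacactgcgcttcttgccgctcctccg
*Actb* was not among the windows.

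The libraries were shallow and uneven, which bears on every value that follows. Totals ranged from 206728 to 338255 estimated counts in vehicle and from 207812 to 535224 with KCL-HO-1i. Between 7584 and 17320 genes had a count in a library. Mitochondrially encoded genes took 41.8% of the counts of KCL-HO-1i replicate 3, against 1.17% to 9.68% in the other 5 libraries. Among the markers used for the sort, *Adgre1* (F4/80) had 1 to 3 counts in vehicle and 26 to 72 with KCL-HO-1i, *Mrc1* (CD206) 0 to 12 and 30.6 to 104.1, *Lyve1* 8 to 22 and 8 to 38, and *Ptprc* (CD45) 0 to 6 and 0 to 94. The vehicle libraries thus held few reads of the genes that define the sorted cell. In bulk samples fewer cells of a type and less RNA per cell cannot be told apart.

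Together the 10 genes took a larger part of the counts in the KCL-HO-1i libraries, and the groups did not overlap. Vehicle replicates 1, 2 and 3 held 673, 61 and 155 counts on them, or 0.326% (95% Wilson interval 0.302 to 0.351), 0.0283% (0.0220 to 0.0363) and 0.0458% (0.0392 to 0.0536) of the library. KCL-HO-1i replicates 1, 2 and 3 held 2429, 4317 and 4606 counts, or 1.17% (1.12 to 1.22), 1.35% (1.31 to 1.39) and 0.861% (0.836 to 0.886). These intervals cover counting error only, since reads without molecular identifiers are not independent molecules. The mean share was 0.133% ± 0.167 (SD, n = 3) in vehicle. With KCL-HO-1i it was 1.13% ± 0.247 (SD, n = 3), higher by 0.993 percentage points (exact permutation test, two-sided, p = 0.1, the lowest value possible for 3 mice against 3). Vehicle replicate 1 lay far above the other vehicle libraries, and without it the difference was 1.09 percentage points. Counted over nuclear genes only, the KCL-HO-1i libraries drew together at 1.29%, 1.38% and 1.48%.

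**Figure D1:**
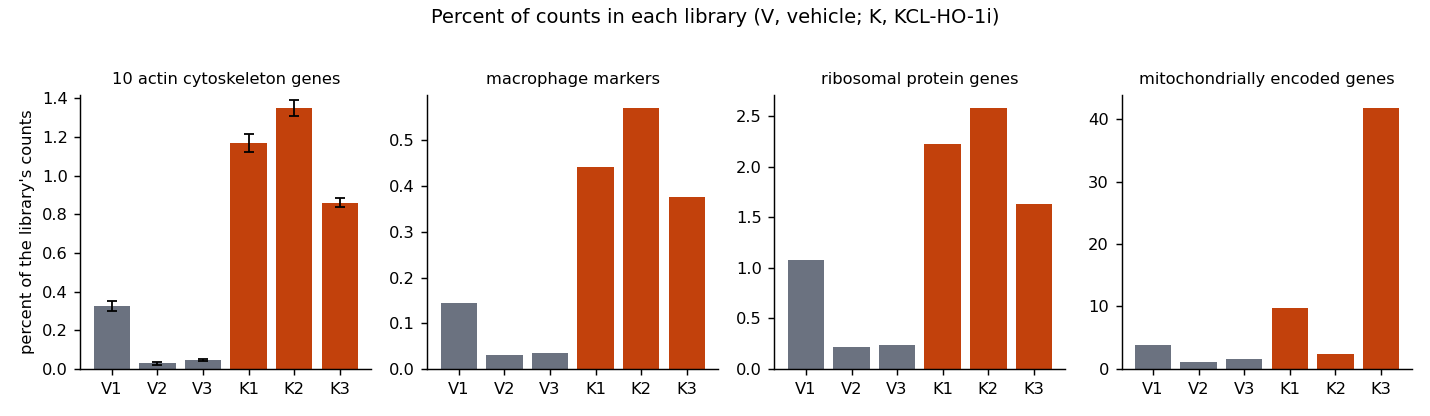
Percent of each library's estimated counts on the 10 actin cytoskeleton genes (with 95% Wilson intervals), the 17 macrophage markers, the 83 cytosolic ribosomal protein genes and the 13 mitochondrially encoded genes, in the vehicle libraries (V1 to V3, gray) and the KCL-HO-1i libraries (K1 to K3, orange). The first 3 sets had the same order of libraries, with V1 the highest vehicle library and K2 the highest of all, whereas mitochondrially encoded genes were far higher in K3.

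Other sets of genes moved with this share, and their part in it was not tested. Of 17 macrophage markers, 10 passed the filter on low counts, 9 of them higher with KCL-HO-1i. Of all genes tested, 32.6% were higher. *Adgre1*, with 1 to 3 counts in vehicle, passed the filter through its KCL-HO-1i libraries alone, so that it had to differ to be tested. *Fcgr3* and *Mertk* were at 0 in all vehicle libraries, and had 72, 0 and 106 and 0, 11 and 11 counts with KCL-HO-1i. Other markers did not separate the groups. *Cd68* had 8, 9 and 8 counts in vehicle and 0, 14 and 4 with KCL-HO-1i. *Fcgr1* had 5, 2 and 11 against 0, 6 and 14, and *Cd163* 2, 0 and 8 against 0, 10 and 0. The largest counts with KCL-HO-1i were on *Lyz2* (115, 9 and 33 in vehicle, 330, 814 and 781 with KCL-HO-1i). The summed share of the 17 was 0.0306% to 0.144% in vehicle and 0.375% to 0.571% with KCL-HO-1i. Ribosomal protein genes took 0.213% to 1.08% and 1.63% to 2.58%. The 10 epithelial or tumor cell markers, of which 2 passed the filter, both higher, took 0.0158% to 0.0300% and 0.0407% to 0.177%, with *Csn2*, *Wap* and *Lalba* at 0 in vehicle. Most of their counts with KCL-HO-1i were on the milk protein gene *Csn3* (39, 1 and 18 in vehicle, 244, 79 and 176 with KCL-HO-1i), whereas *Cdh1* was lower in every KCL-HO-1i library (5, 12 and 13 against 0, 3 and 0) and *Epcam* had 0 to 9 counts throughout. The 6 endothelial markers went the other way, at 0.0190% to 0.0227% and 0.00523% to 0.00970%, and the 1 that passed was lower. Fibroblast or pericyte markers took 0.0278% to 0.0324% and 0.00722% to 0.0192%. T or NK cell, neutrophil and B cell markers stayed at 0.0164% or less in every library.

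Measured against those sets, the 10 genes still separated the groups, by a smaller factor. Per macrophage marker count they had 2.26, 0.924 and 1.30 counts in vehicle replicates 1 to 3 and 2.64, 2.37 and 2.29 in KCL-HO-1i replicates 1 to 3. The means of 1.50 ± 0.687 and 2.43 ± 0.185 (SD, n = 3 each) differed 1.63-fold, with vehicle replicate 1 just under the lowest KCL-HO-1i library (two-sided exact permutation test, p = 0.1). Per ribosomal protein count they had 0.301, 0.133 and 0.196 in vehicle. In the KCL-HO-1i libraries they had 0.525, 0.523 and 0.529, so that the means differed 2.50-fold (exact p = 0.1). The KCL-HO-1i libraries were close to one another in this ratio, with an SD of 0.00273 against 0.0852 in vehicle. Both denominators were chosen after the data were seen.

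The actins were read in every library. *Actb* (chr5:142903115-142906754, GRCm38, minus strand), which encodes beta-actin, had 217, 3 and 41 counts in vehicle and 783, 1374 and 1592 with KCL-HO-1i. Its lowest KCL-HO-1i library lay well above its highest vehicle library, and vehicle replicate 2 was nearly without it. In CPM (counts scaled to a common library total) the means were 395 ± 569.7 and 3680 ± 665.8 (SD, n = 3 each), a ratio of 9.32. By count, *Actb* was gene number 13 to 22 of the KCL-HO-1i libraries and number 21 of vehicle replicate 1, but number 10865 and 1514 of vehicle replicates 2 and 3. The fitted log2 fold change was 3.44 (SE 1.34), with an adjusted p of 0.502 in edgeR's quasi-likelihood test.

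*Actg1* (chr11:120345690-120348542, minus strand), which encodes the other cytoplasmic actin, gamma-actin, had 95, 21 and 41 counts in vehicle and 358, 560 and 563 with KCL-HO-1i. All 3 KCL-HO-1i libraries were higher than any vehicle library, and the vehicle libraries were less uneven than for *Actb*. Mean CPM was 226 ± 203 and 1509 ± 396 (SD, n = 3 each), a ratio of 6.67, and the log2 fold change was 2.92 (SE 0.90, edgeR adjusted p = 0.322); scaled to macrophage markers it was -0.01. The 4 muscle actins *Acta1*, *Acta2*, *Actc1* and *Actg2*, which smooth, skeletal and cardiac muscle use, did not pass the filter and had 0 to 13 counts each, or 0.000561% to 0.00626% of a library together.

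The thymosins differed widely in amount. *Tmsb4x* (chrX:167207093-167209315, minus strand), which encodes thymosin beta-4, the main store of actin monomers, had 318, 6 and 31 counts in vehicle and 1196, 2142 and 2126 with KCL-HO-1i. It followed *Actb* library by library, vehicle replicate 1 included. Mean CPM was 552.7 ± 854.4 and 5476 ± 1385 (SD, n = 3 each), a ratio of 9.91, with a log2 fold change of 3.50 (SE 1.40, edgeR adjusted p = 0.516). *Tmsb10*, which encodes the related thymosin beta-10 (chr6:72957347-72958748, minus strand), had 3, 5 and 2 counts in vehicle and 14, 33 and 15 with KCL-HO-1i. Its groups stayed apart, but these counts did not pass the filter, and mean CPM was 14.5 ± 8.64 and 66.2 ± 37.6 (SD, n = 3 each).

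*Pfn1* (chr11:70651850-70654644, minus strand), which encodes profilin 1, was all but absent from vehicle. It had 0, 0 and 3.4 counts there and 11, 56 and 89 with KCL-HO-1i. A count of 0 allows 14.5 CPM in vehicle replicate 1 and 13.9 in vehicle replicate 2, below the 52.9 CPM of the lowest KCL-HO-1i library. Pooled over libraries the ratio of CPM was 37.2, with a 95% counting interval from 12.5 to 182. Its log2 fold change of 5.46 (SE 1.43) was the largest of the members tested, with an edgeR adjusted p of 0.296.

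*Cfl1* (chr19:5490455-5495201, plus strand), which encodes the filament-severing cofilin 1, had the smallest fitted difference of the members tested. It had 13, 15 and 27.8 counts in vehicle and 4, 61 and 48 with KCL-HO-1i. KCL-HO-1i replicate 1 was the lowest of all 6 libraries and replicate 2 the highest, so the groups overlapped. Mean CPM was 71.8 ± 10.1 and 99.9 ± 86.2 (SD, n = 3 each). The log2 fold change was 0.82 (SE 1.01, edgeR adjusted p = 0.931), and it was -3.01 when scaled to macrophage markers and -2.40 when scaled to ribosomal protein genes.

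*Coro1a* (chr7:126699773-126707787, minus strand), which encodes coronin 1A, had 0, 0 and 1 counts in vehicle and 5, 5 and 18 with KCL-HO-1i. Every KCL-HO-1i library was above every vehicle library, at 15.6 to 33.6 CPM against 0 to 2.96. With so few counts it did not pass the filter, and the pooled ratio of 20.0 had a counting interval from 3.31 to 819. At this depth the size of the difference is poorly known.

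The subunits of the Arp2/3 complex had few counts and did not all look alike. *Arpc2* (chr1:74236084-74268209, plus strand), which with ARPC4 forms the core of the complex, had 23, 3 and 2 counts in vehicle and 31, 48 and 72 with KCL-HO-1i. Its CPM was nearly level in the KCL-HO-1i libraries, at 145 ± 8.75 (SD, n = 3), all above the 111 of vehicle replicate 1 and the 5.91 and 13.9 of the other 2. The log2 fold change was 1.99 (SE 1.12, edgeR adjusted p = 0.761), and -0.57 when scaled to macrophage markers. *Arpc1b* (chr5:145114215-145130705, plus strand), the form of the ARPC1 subunit that blood cells use most, had 3.9, 7.5 and 6.5 counts in vehicle and 27, 12 and 18 with KCL-HO-1i. In CPM its groups overlapped, with KCL-HO-1i replicate 1 at 130 and the other 2 at 33.6 and 37.5, against 17.7 to 37.1 in vehicle.

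*Arpc3* (chr5:122391878-122414184, plus strand), another subunit of the complex, had no count in any vehicle library. KCL-HO-1i replicate 1 also had none, whereas replicates 2 and 3 had 26 and 65. The groups therefore overlapped at 0. Against a floor of 3 counts over the pooled vehicle libraries, the pooled KCL-HO-1i level was at least 21.7-fold higher, a bound on the pooled counts that does not hold for replicate 1. Neither *Arpc1b* nor *Arpc3* passed the filter.

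**Figure D2:**
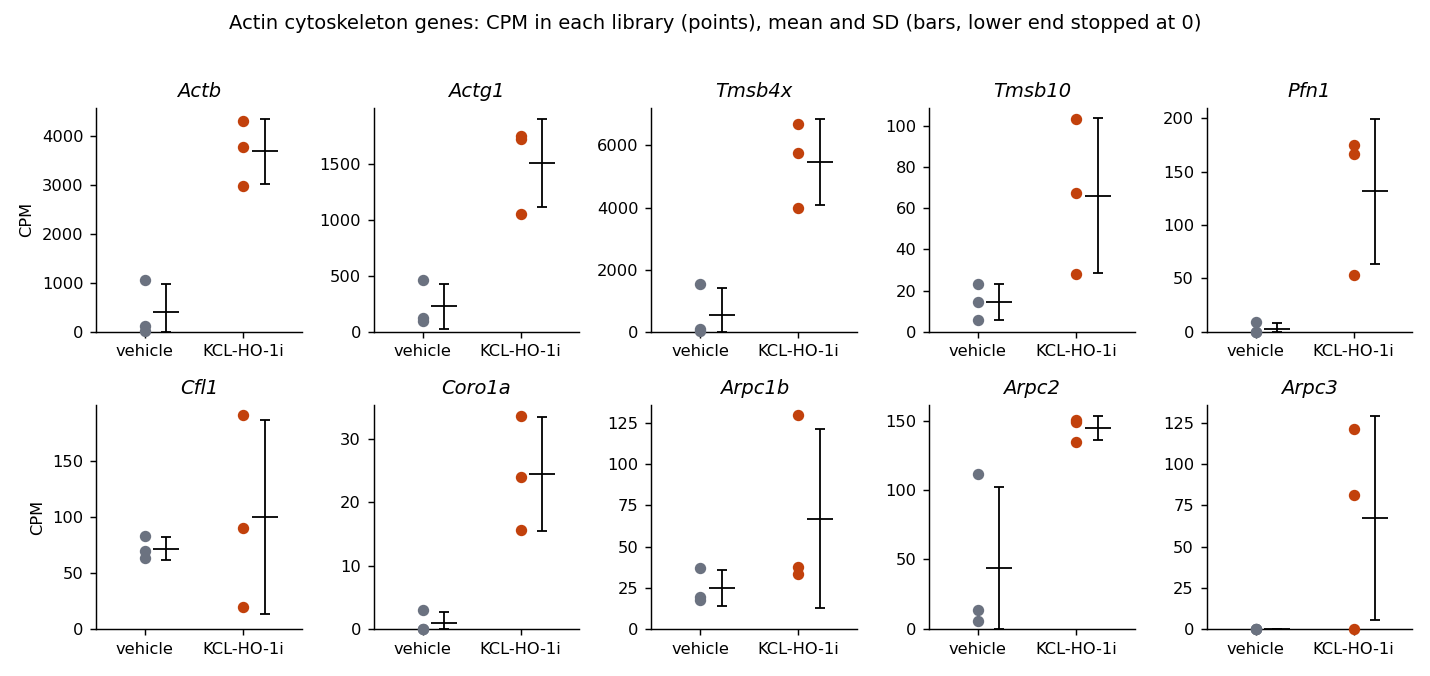
CPM of each of the 10 genes in the 3 vehicle libraries (gray points) and the 3 KCL-HO-1i libraries (orange points), with the group mean and SD as black bars whose lower end stops at 0; each panel has its own linear axis from 0. In 7 of the 10 panels all orange points lie above all gray ones, and in those of *Cfl1*, *Arpc1b* and *Arpc3* the groups overlap. The 7 include *Tmsb10* and *Coro1a*, which did not pass the filter. Among genes that passed it, this held for 5 of the 6 members and for 6.71% of all genes tested.

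Of the 10 members, 6 passed the filter (*Actb*, *Actg1*, *Tmsb4x*, *Pfn1*, *Cfl1* and *Arpc2*), *Pfn1* through its KCL-HO-1i libraries alone, so that it had to differ between the groups to be tested. None of the 6 was called by edgeR at an adjusted p under 0.05 and an absolute log2 fold change above 0.6, as was none of the 7263 genes tested (0.0%). All 6 had a positive log2 fold change, as had 32.6% of all genes tested, with a median of 3.18 against -0.52 over all genes tested. At an unadjusted p under 0.05, 4 of the 6 were higher, against 364 of all genes tested (5.01%), and 0 were lower, against 222 (3.06%). In CPM, 5 of the 6 were higher in every KCL-HO-1i library than in every vehicle library, which 487 genes were (6.71%), and 0 were lower in every one, which 1454 were (20.0%). DESeq2, the tool of the study, called 2 of the 6 on the same genes, *Actg1* (adjusted p = 0.0160) and *Pfn1* (adjusted p = 0.00695), where 2.26% of the genes tested were called higher. limma with sample weights called *Actb*, *Actg1*, *Tmsb4x* and *Pfn1*, where it called 4.03% of the genes tested higher.

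Vehicle replicate 1 decided several of these values. Without it, 9 members passed the filter and edgeR called 3 of them, where 0.731% of the genes tested were called higher. These were *Actb* at a log2 fold change of 6.23 (adjusted p = 0.0384), *Tmsb4x* at 6.96 (adjusted p = 0.0331) and *Actg1* at 4.25 (adjusted p = 0.0414). *Arpc2* went from 1.99 to 4.39 but was not called (adjusted p = 0.198), and *Pfn1* was 5.31 (adjusted p = 0.226). *Pfn1* turned on vehicle replicate 3, the one vehicle library with a count of it, and without that library its fitted value was 8.59 (adjusted p = 0.768), which against 0 counts is no measure of size. Leaving out any library other than vehicle replicate 1 gave no call among the members.

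The scale set between libraries also mattered. Over all genes tested, the median log2 fold change was -0.52 after TMM normalization, -0.88 with library totals alone, -3.53 when libraries were scaled to ribosomal protein genes and -4.10 when scaled to macrophage markers. The members' median on these scales was 3.18, 2.83, 1.15 and 0.54. A change of scale moves all genes in a similar way. That the members' median lay above that of all genes on each scale is therefore no separate support. The number of the 6 with a positive value was 6, 6, 5 and 3.

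**Figure D3:**
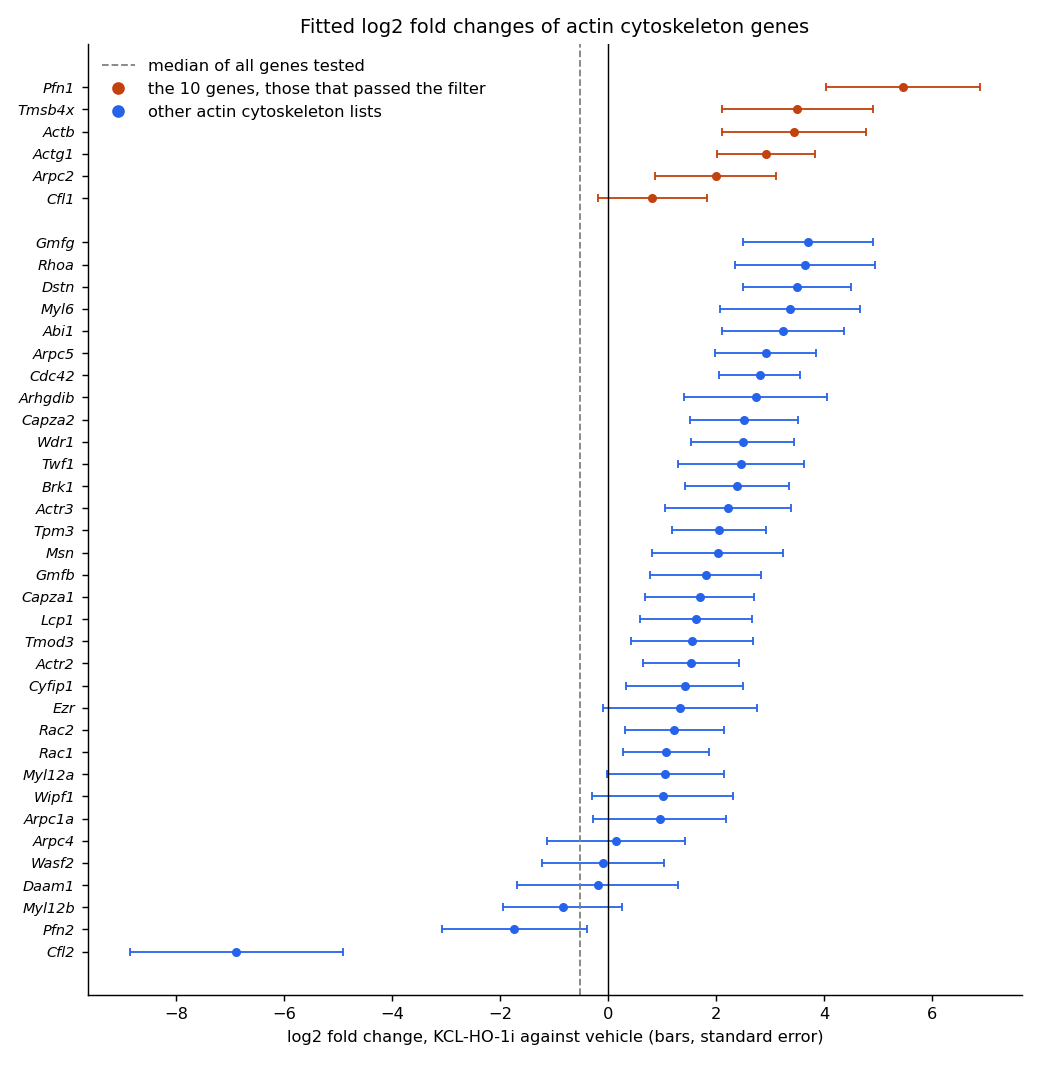
Fitted log2 fold change (x axis, KCL-HO-1i against vehicle after TMM normalization, bars 1 standard error) of the 6 members that passed the filter (orange) and of the 33 genes of other actin cytoskeleton lists that did (blue), with the median of all genes tested at -0.52 (dashed). Most points lie to the right of that line, and *Cfl2* lies far to the left at -6.89.

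The 10 genes divided their counts in nearly the same way in all KCL-HO-1i libraries and in vehicle replicate 1. *Actb* and *Tmsb4x* together made up 81.5%, 81.5% and 80.7% of the members' counts with KCL-HO-1i and 79.5% in vehicle replicate 1 (95% Wilson interval 76.3 to 82.4). In vehicle replicates 2 and 3 they made up 14.8% (7.96 to 25.7) and 46.5% (38.8 to 54.3). The transcripts of these 2 genes are 18.4% of the summed transcript length of the 10. Their 14.8% in vehicle replicate 2 was near that figure but rests on 9 counts. Single genes there did not go by length. At median transcript lengths of 1827 and 1660 bases, *Actg1* took 34.4% of the members' counts in vehicle replicate 2 and *Coro1a* 0%. *Cfl1* and *Arpc1b* took 24.6% and 13.1% of the members' 61 counts there, against 0.165% to 1.41% and 0.278% to 1.11% with KCL-HO-1i.

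**Figure D4:**
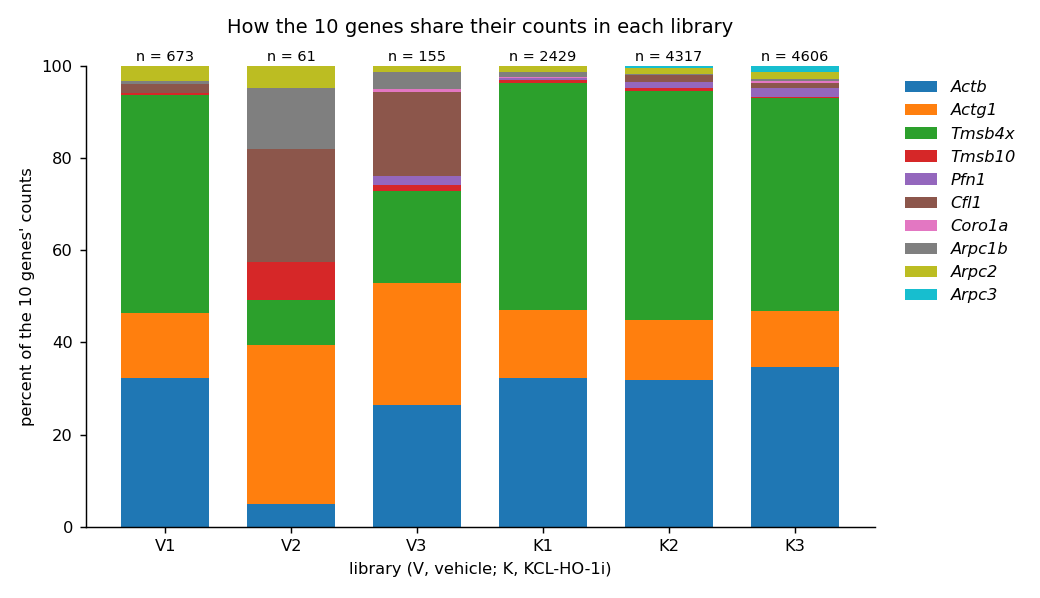
Percent of the counts on the 10 genes that each gene took in each library (V1 to V3, vehicle; K1 to K3, KCL-HO-1i), with the summed count above each bar. The 3 KCL-HO-1i bars and V1 have nearly the same make-up, with *Actb* and *Tmsb4x* at 79.5% to 81.5%, whereas these genes take 14.8% in V2 and 46.5% in V3.

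Ratios between members within a library do not depend on the scaling, and 8 were compared after 0.5 was added to each count. Only that of *Cfl1* to *Pfn1* did not overlap between groups, at 27, 31 and 8.14 in vehicle and 0.391, 1.09 and 0.542 with KCL-HO-1i. Its log2 ratio was lower by 4.95 with KCL-HO-1i (exact permutation test, two-sided, p = 0.1, 0.533 adjusted over the 8 ratios), and it rests on at most 3.4 counts of *Pfn1* in vehicle. *Tmsb4x* to *Actb* was steady with KCL-HO-1i, at 1.53, 1.56 and 1.34, and more uneven in vehicle, at 1.46, 1.86 and 0.759 (exact p = 0.8). *Actg1* to *Actb* was 0.458, 0.408 and 0.354 with KCL-HO-1i, and 0.439, 6.14 and 1.00 in vehicle, where replicate 2 had 21 counts of *Actg1* and 3 of *Actb* (exact p = 0.2).

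Levels can be ordered between genes only per length, as CPM per kilobase of median transcript length. With KCL-HO-1i, *Tmsb4x* was the highest at 7130 ± 1803 (SD, n = 3), followed by *Actb* at 2328 ± 421 and *Actg1* at 826 ± 217, with no overlap among them. *Pfn1* at 179 ± 92.8, *Tmsb10* at 111 ± 63.1, *Arpc2* at 103 ± 6.23, *Cfl1* at 87.0 ± 75.1 and *Arpc3* at 85.9 ± 78.6 followed, and these neighbours overlapped. *Arpc1b* at 29.8 ± 24.2 and *Coro1a* at 14.7 ± 5.42 had the lowest means and overlapped each other. They reached up to 57.8 and 20.3, and both also overlapped *Cfl1* and *Arpc3*, whose lowest libraries were at 16.8 and 0. In vehicle the same 3 genes led by their means, at 720, 250 and 124 CPM per kilobase, but their libraries overlapped. There *Cfl1* was next at 62.5, and *Pfn1* at 4.03, *Coro1a* at 0.594 and *Arpc3* at 0 were the last. This order of means did not hold in every vehicle library. In vehicle replicate 2, *Tmsb4x*, *Actb* and *Actg1* were at 36.2, 8.80 and 53.3, all below the lowest vehicle value of *Cfl1*, 54.8.

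The members were short, and in these libraries the fitted fold change went with transcript length. The median transcript length of the 10 was 1276 bases, against 3416 bases over the genes tested. In 10 bins of length with about equal numbers of genes, the median log2 fold change was 1.11 in the shortest bin (204 to 1520 bases), -0.29 in the next and -0.82 in the longest. Within their own bins *Pfn1* lay at percentile 98.1, *Actb* at 97.1, *Actg1* at 95.6, *Tmsb4x* at 85.3, *Arpc2* at 59.9 and *Cfl1* at 46.5. *Cfl1* and *Arpc2* were thus near the middle of genes of their length. The percentile of *Pfn1* carries no weight, since it passed the filter through its KCL-HO-1i libraries alone and had to be higher there to be tested. The part of length in the members' values was not tested.

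**Figure D5:**
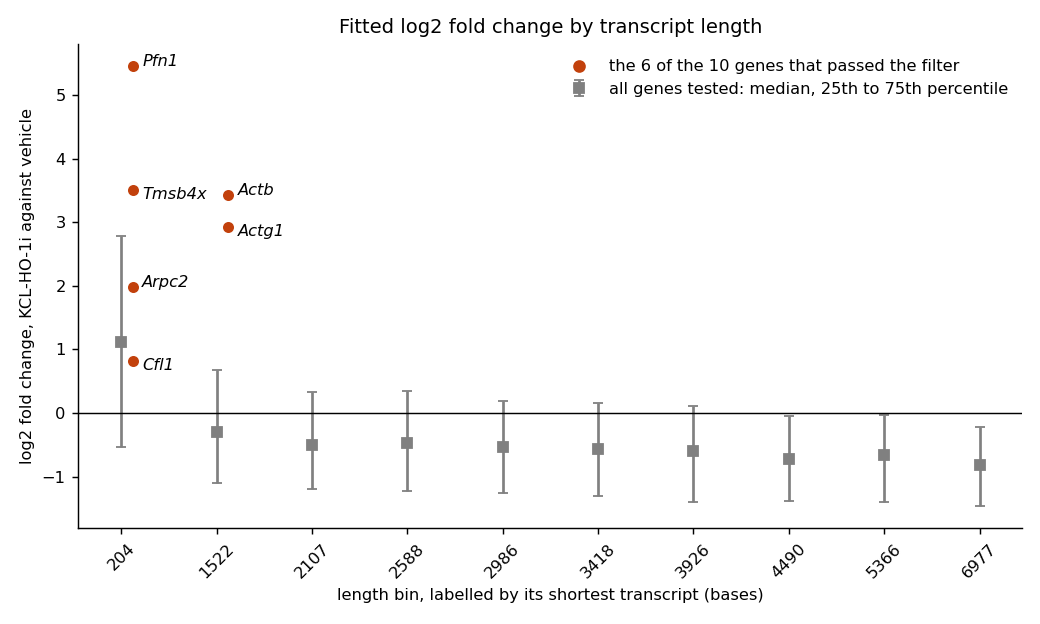
Fitted log2 fold change (y axis) in 10 bins of transcript length (x axis, each labelled by its shortest transcript in bases): median and 25th to 75th percentile of all genes tested (gray) and the 6 members that passed the filter (orange). The shortest bin has a median of 1.11 and the longest of -0.82, and *Pfn1*, *Tmsb4x*, *Actb* and *Actg1* lie above the 75th percentile of their bins. *Pfn1* passed the filter through its KCL-HO-1i libraries alone.

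The genes tested whose profile over the 6 libraries was nearest to the mean profile of the 6 members were *Ctsb*, *Gpx4* and *Gabarap*. Likeness was the root mean square difference of centred log2 CPM, which was 0.152, 0.256 and 0.263, among 7257 genes. The members themselves lay 0.338 (*Actg1*) to 1.84 (*Cfl1*) from their own mean profile, so *Ctsb*, a lysosomal protease, was nearer to it than any of them. The counts of *Ctsb* were 183, 33 and 72.3 in vehicle and reached 528, 1138 and 1418 with KCL-HO-1i.

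The rest of the actin machinery was read from 6 lists of 58 genes, of which 33 passed the filter. None of these was called by edgeR. At an unadjusted p under 0.05, 11 were higher and 1 lower, against 5.01% and 3.06% of all genes tested. The median log2 fold change was 1.69 against -0.52 over all genes tested. Of the 33, 3 passed through their KCL-HO-1i libraries alone, among them 2 of the 11, and 1 through its vehicle libraries alone, the 1 lower gene *Cfl2*, so these had to differ to be tested. Against a positive value in 32.6% of all genes tested, positive values were found for 5 of 5 other Arp2/3 subunits (median 1.53), 4 of 5 Arp2/3 activators (1.42), 7 of 9 monomer binding, depolymerization and capping genes (2.46) and 6 of 7 cortex, tropomyosin and myosin genes (1.55), and for 1 of 2 formin and bundling genes. Scaled to ribosomal protein genes, 9 of the 33 were positive (5.05% of all genes tested), and scaled to macrophage markers 5 were (3.55%). DESeq2 called 4 higher, *Arpc5*, *Dstn*, *Gmfg* and *Cdc42* (2.26% of all genes tested), and *Cfl2* lower (0.991%); *Gmfg* is named for this call, after its values were seen.

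*Cdc42*, which switches on N-WASP and so Arp2/3, had 19, 28 and 33 counts in vehicle and 246, 197 and 177 with KCL-HO-1i. Its groups lay far apart, and its log2 fold change was 2.81 (SE 0.75, edgeR adjusted p = 0.296), although it was -0.71 scaled to macrophage markers and -0.18 scaled to ribosomal protein genes. *Dstn*, a relative of cofilin, had 27, 2 and 12 counts in vehicle and 208, 135 and 218 with KCL-HO-1i, and a log2 fold change of 3.50 (SE 1.00, edgeR adjusted p = 0.305). *Arpc5*, an Arp2/3 subunit, had 33, 17 and 13 counts and 52, 212 and 361. Its log2 fold change was 2.92 (SE 0.93, edgeR adjusted p = 0.333), and -0.42 scaled to macrophage markers.

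Of the other actin genes, 3 were named for a lower level, *Cfl2*, *Pfn2* and *Myl12b*. *Cfl2*, the muscle form of cofilin, had 12, 10.2 and 20.4 counts in vehicle and none in any KCL-HO-1i library. Against a floor of 3 counts over the pooled KCL-HO-1i libraries it was at least 19.6-fold lower there. It passed the filter through its vehicle libraries alone, so that it had to differ to be tested, and its adjusted p was 0.316 in edgeR and 0.0296 in DESeq2. *Pfn2*, the profilin best known from neurons, had 15, 27 and 25 counts in vehicle and 6, 16 and 0 with KCL-HO-1i, without overlap in CPM (log2 fold change -1.74, SE 1.34, edgeR adjusted p = 0.870). *Myl12b*, a regulatory light chain of non-muscle myosin, overlapped (log2 fold change -0.84, SE 1.10, edgeR adjusted p = 0.931). Within the cofilins and the profilins, *Cfl1* and *Pfn1* had positive and *Cfl2* and *Pfn2* negative log2 fold changes after TMM normalization. *Cfl1* was negative too when scaled to macrophage markers or ribosomal protein genes. No contrast between these forms is drawn. *Pfn1* passed the filter through its KCL-HO-1i libraries alone and *Cfl2* through its vehicle libraries alone. *Cfl1* (0.82, SE 1.01) and *Pfn2* had large standard errors, and *Dstn*, a relative of cofilin, was positive (3.50).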

How the data were processed

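Live CD206+LYVE-1+ TAMs were sorted from 6 tumor-bearing mice, RNA was purified with the RNeasy Mini Kit and libraries were made with the NEBNext Ultra II Directional kit. According to the submitters' processing notes and the methods, the authors used FastQC 0.11.9, STAR 2.7.9a, Salmon 1.9.0, tximport and the mm10 build. The annotation is not given in the sources used here. The deposited values are estimated counts per gene, 2.95% to 19.3% of them not whole in a library. The methods call them TPM counts, but the totals differ between libraries (206728 to 535224), so they were treated as estimated counts.

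Counts were rounded, filtered with filterByExpr (minimum count 10, minimum total 15), scaled by TMM and fitted in edgeR 4.0.16 (R 4.3.3) with no covariate; p-values of its quasi-likelihood test were adjusted over 7263 genes by Benjamini-Hochberg. A call required an adjusted p under 0.05 and a log2 fold change beyond 0.6 in either direction. The standard error was the fold change divided by the square root of F. DESeq2 1.42.0 and limma 3.58.1 were alternatives. Single values were compared with two-sided exact permutation tests (smallest p 0.1). The floor was 3 counts. For profiles, log2 CPM had a prior count of 2. Gene positions, transcript lengths and coding sequences came from GENCODE M21 on GRCm38, promoters from RefSeq on GRCm38.p6. Length was the median over basic protein-coding transcripts.

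The 10 members and all lists were chosen with earlier results of these data known. Besides the members, the text names 3 higher and 3 lower genes of the other actin lists, those of smallest p, all muscle actins, the 3 genes with the nearest profile, and the genes of the sort markers. *Lrrc58*, *Gm9844*, *Gmfg* and the single cell type markers were added after their values were seen. The numbers of the replicates do not pair mice: the correlations of deviations of same-numbered libraries were -0.0026, 0.0550 and -0.0326. Replicates were separate mice, and none of the 6 pairs of libraries within a group agreed within sampling noise. The values of 1 of the 6 other actin lists are not reported here on their own.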

Additional observations from a re-analysis of the deposited data

How the results depend on the processing

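The count of genes called rested on the method. It was 0 with edgeR as reported, and 236 (164 higher, 72 lower) with DESeq2 on the same genes, 165 (102 and 63) with DESeq2 without a filter, 299 (293 and 6) with limma, 82 (70 and 12) without a filter, 67 (61 and 6) with at least 10 counts in every library, 2713 (11 and 2702) scaled to ribosomal protein genes and 4913 (9 and 4904) scaled to macrophage markers. Leaving out 1 library at a time gave 0 to 74, the latter without vehicle replicate 1. Of the members, 2 of 6 were called by DESeq2 on the same genes and 4 of 6 by limma, each over 7263 genes. Without a filter 1 of 10 was called by DESeq2 and 2 of 10 by edgeR, each over 19518 genes. With at least 10 counts in every library only 1 member was among the 948 genes, and it was called. These member counts are therefore not comparable between settings. With 1 library left out, 0 to 3 of the 6 to 9 members tested were called. Of the other actin genes, 5 and 2 were called by DESeq2 with and without the filter, 7 by limma, 2 with at least 10 counts in every library, 2 scaled to ribosomal protein genes, 5 scaled to macrophage markers and 0 to 1 with 1 library left out. Size factors of DESeq2 in edgeR, library totals, leaving out mitochondrially encoded genes and the replicate block each gave 0 calls.

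Scaled to macrophage markers, the log2 fold change turned negative for *Actg1* (-0.007), *Cfl1* (-3.01), *Arpc2* (-0.57), *Cdc42* (-0.71), *Arpc5* (-0.42), *Gabarap* (-0.15) and *Lyve1* (-2.61), and scaled to ribosomal protein genes for *Cfl1* (-2.40), *Cdc42* (-0.18) and *Lyve1* (-1.99). The difference in the members' share was 1.25 percentage points without mitochondrially encoded genes, 0.501 without *Tmsb4x* and 0.665 without *Actb*, and 0.882 to 1.13 with 1 library left out. Of the 8 ratios, 1 to 6 did not overlap with 1 library left out, 6 of them without vehicle replicate 1 and 3 without KCL-HO-1i replicate 1. The causes were not tested. The replicate numbers do not pair the mice, and with the number as a block 0 members were called, with a median log2 fold change of 4.22. Depth limits *Tmsb10*, *Coro1a*, *Arpc1b* and *Arpc3*, with 0 to 65 counts a library, to a description.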
